A study of Mus musculus with 35 samples.

Results

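Young mouse livers were compared 24 h after partial hepatectomy (PH) with livers taken 24 h after sham surgery. The arrays were chosen by their titles, 3 for PH and 2 for sham, which is 5 of the 35 arrays in the series, and every gene measured by a probe set with a single gene symbol was included, 18194 genes in all. The PH mice lost 70% of the liver mass, and in sham mice the liver was handled and left whole. Young untreated livers (0 h, 3 arrays) served as a further point of comparison. All of these mice were male CB6F1 hybrids, 5 to 6 months old, supplied by Jackson Laboratories, and surgery was done under avertin followed by isoflurane. Old mice, whose arrays are used further below, were 25 to 27 months old. Liver RNA was measured on Affymetrix mouse genome arrays, with an array for each sample. Nothing in the labels states that replicate arrays came from different animals, and p-values here describe the spread between samples alone.

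After loss of liver tissue, the remaining hepatocytes leave quiescence, pass through G1 and copy their DNA before they divide. Origin licensing loads the MCM helicase onto DNA in G1, and genes of licensing, the replication fork and deoxynucleotide supply are switched on around the entry into S phase, many of them through E2F factors. Genes of mitosis follow later. Sham surgery brings anaesthesia and injury without loss of tissue, so it is the control for the operation itself.

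Levels are log2 signals, and a difference between groups is given on the log2 scale with the standard error (SE) of a limma fit to all 35 arrays. A gene is said to rise or fall where its Benjamini-Hochberg adjusted p over 18194 genes was under 0.05. Arrays correlated across genes at 0.9962 between the shams, at 0.992 to 0.9947 among the PH livers and at 0.985 to 0.99 between PH and sham. The hepatocyte markers (10 measured) had a mean level of 13.45 to 13.48 in PH livers and 13.45 to 13.49 in sham livers. Alb, encoding albumin, and Hnf4a, a hepatocyte transcription factor, lay at 0.00 and -0.01 between PH and sham. Alb (14.88 to 14.90) was near the top of these arrays, whose highest signals ran from 14.883 to 15.0132. Equal levels so near the top do not establish equal hepatocyte content. PH replicate 1 stood apart in its adipocyte markers and in some stellate cell markers. The mean level of the 8 measured adipocyte markers ran from 7.44 to 8.92 in PH livers and was 6.88 in both shams, and Adipoq, the adipocyte hormone adiponectin, had 9.84, 5.81 and 5.10 in PH replicates 1 to 3 against 4.93 and 5.06 in the shams. Among stellate cell markers, Col1a1 had 10.18, 8.20 and 8.21 in PH replicates 1 to 3, and Acta2 had 11.02, 9.43 and 9.33. Others, such as Reln (10.27, 10.60 and 10.18) and Colec11 (8.78, 8.98 and 8.51), were not highest in replicate 1. The part of adipocyte or stellate cell RNA in the results was not tested. The number of arrays limits the precision.

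PH livers carried more RNA of some genes, and how many passed depended on the arrays in the fit. In all, 107 genes rose (0.588% of those tested) and 22 fell (0.121%), and 37 of the rises and 3 of the falls exceeded 2-fold. With arrays centred on their medians the split was 86 higher and 33 lower, and with quantile normalization repeated it was 86 and 49. The PH and sham arrays did not overlap for any of the 129 genes, where PH lay above both shams for 20.5% of all genes and below both for 19.1%. Just inside the threshold were Mcm5 (2.56), Npat (0.69) and Tfdp1 (0.48), and just outside it Sptbn1 (0.59), Pip4p1 (-0.32) and Tmem82 (0.41), the genes other than Mcm5 and Tfdp1 being named only for their place there. For genes without overlap, leaving out 1 PH or sham array cannot turn the sign, so a kept sign does not show stability. Single arrays carried much of the count. It was 1 without sham replicate 1 (the gene Idh3a, 0.0055% of genes), 13 without sham replicate 2, 10 without PH replicate 1, 39 without PH replicate 2 and 117 without PH replicate 3, while all 129 genes kept their sign in each of these fits. The count was 713 (3.92%, 3% higher and 0.918% lower) without 2 old PH arrays that stand apart from their groups, since all arrays share the estimate of the spread. These were replicate 3 at 38 h and replicate 1 at 24 h, with median correlations of 0.946 and 0.9645 with their groups, the lowest of the series. The other old PH arrays at these times were not far from them, at 0.9687 to 0.9802.

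Genes of DNA replication were among the largest rises. Rrm2, the small subunit of ribonucleotide reductase, which makes deoxynucleotides, had 10.16, 10 and 8.39 in PH livers against 6.03 and 6.38 in sham livers. All PH arrays lay well above the shams, PH replicate 3 being the lowest of them. The rise was 3.31 ± 0.60, or 9.91-fold (adjusted p = 0.0106). In bulk tissue, more cells that express a gene and more RNA per cell cannot be told apart. Untreated livers averaged 7.75, so Rrm2 was at 1.76 against them after PH and at -1.55 after sham, a comparison that shares arrays with the first.

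Licensing genes rose with it. Of the 20 measured genes of origin licensing, 5 rose and none fell, and the median difference was 0.71 against -0.01 over all genes. Among all genes 0.588% rose, and 3% did without the 2 old arrays. Mcm5, a helicase subunit, had 10.06, 9.89 and 9.22 in PH livers against 7.17 and 7.15 in sham livers. The groups were far apart, and the rise was 2.56 ± 0.62 (5.91-fold, adjusted p = 0.0496). Mcm6 had 10.76, 10.54 and 9.62 in PH livers against 7.76 and 7.82 in shams, a rise of 2.52 ± 0.58, and Mcm4 rose by 1.97 ± 0.37. Both are subunits of the same hexamer. Cdc6 and Cdt1, the factors that load it, rose by 1.84 ± 0.43 and 1.79 ± 0.36. Cdc6 had 6.92, 7.39 and 5.75 in PH livers against 4.80 and 4.90 in shams, so that PH replicate 3 was again the lowest PH array and still above the shams. The other subunits were higher in PH without passing, with Mcm7 at 1.27 (adjusted p = 0.124), Mcm2 at 1.13 (0.063) and Mcm3 at 0.85 (0.083). No licensing gene passed without PH replicate 1, PH replicate 2 or either sham, 6 passed without PH replicate 3, and 9 passed without the 2 old arrays.

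Fork genes followed with smaller changes. Of 34 measured fork genes 4 rose (0.588% of all genes did), with a median of 0.47. Pcna, the sliding clamp of DNA polymerases, had 12.30, 12.14 and 11.38 in PH livers against 10.55 and 10.62 in shams. PH replicate 3 was the nearest to the shams and did not overlap them, and the rise was 1.35 ± 0.26 (2.56-fold, adjusted p = 0.0169). Topbp1, a replication and checkpoint scaffold, rose by 1.22 ± 0.29, although its other probe set gave -0.21. Tipin and Timeless, partners in a complex that travels with the fork, rose by 1.02 ± 0.21 and 0.88 ± 0.20. Among 25 measured genes of nucleotide synthesis Rrm2 and the CTP synthase gene Ctps (1.18 ± 0.28) rose, while the large reductase subunit Rrm1, named after its values were seen, was at 1.25 (adjusted p = 0.061, and 0.00715 without the 2 old arrays, when 8 of the 25 passed). Usp1, a deubiquitinase of DNA repair, rose by 0.69 ± 0.16, 1 of 18 repair genes (7 without the 2 old arrays). No fork gene passed without PH replicate 1, PH replicate 2 or either sham, 6 passed without PH replicate 3, and 9 passed without the 2 old arrays.

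**Figure D1:**
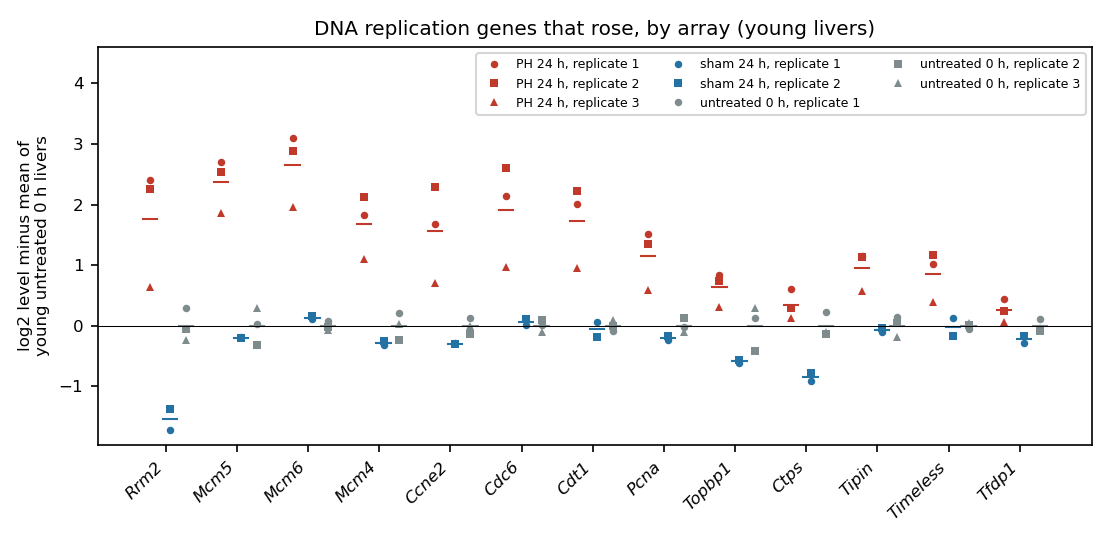
Log2 level of 13 replication and G1 genes that rose, by array, minus the mean of the young untreated livers. Each point is an array, symbols give the replicate, and short lines are group means. PH arrays lie above both shams in every gene, with replicate 3 the lowest PH array.

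G1 regulators were mixed. Cyclin E2 (Ccne2), which drives entry into S phase, had 6.93, 7.53 and 5.95 in PH livers against 4.96 and 4.94 in shams. PH arrays spread over a wide range above a tight pair of shams, and Ccne2 rose by 1.85 ± 0.39 (adjusted p = 0.0249). Tfdp1, the dimer partner of E2F factors, rose by 0.48 ± 0.12. These were 2 of 33 measured G1 genes (10 without the 2 old arrays). Among all genes 0.588% rose, and 3.92% passed in either direction without the 2 old arrays. Cyclin D1 (Ccnd1), the G1 cyclin induced by growth signals, had 11.33, 11.19 and 10.47 in PH livers against 9.18 and 9.32 in shams. The groups did not overlap, but the difference of 1.75 ± 0.54 did not pass (adjusted p = 0.13, and 0.000742 without the 2 old arrays). The CDK inhibitor Cdkn1a stood at 1.67 ± 0.46 (adjusted p = 0.085), Ccne1 at 0.30 and Myc, a growth transcription factor, at 0.50. Against untreated livers Myc was at -0.87 after PH and -1.37 after sham. Cdkn1a averaged 10.10 in PH livers, 8.43 in shams and 9.91 in untreated livers.

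The promoters of 4 of the 5 licensing genes that rose are shown because E2F sites are the classic switch of this group. RefSeq windows of 300 bases (250 before to 50 after the transcription start, build GRCm38.p6) matched 14453 of the measured genes by symbol. They were searched on both strands for TTTCCCGC, TTTCGCGC, TTTGCCGC or TTTGGCGC, and matches may overlap. Capitals mark the matches.
Mcm5: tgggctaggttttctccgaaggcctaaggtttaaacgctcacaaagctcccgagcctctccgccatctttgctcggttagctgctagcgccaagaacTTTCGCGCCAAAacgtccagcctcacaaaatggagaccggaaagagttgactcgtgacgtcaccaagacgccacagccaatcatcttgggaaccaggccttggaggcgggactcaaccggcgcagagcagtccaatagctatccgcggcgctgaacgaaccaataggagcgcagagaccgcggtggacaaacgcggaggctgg
Mcm6: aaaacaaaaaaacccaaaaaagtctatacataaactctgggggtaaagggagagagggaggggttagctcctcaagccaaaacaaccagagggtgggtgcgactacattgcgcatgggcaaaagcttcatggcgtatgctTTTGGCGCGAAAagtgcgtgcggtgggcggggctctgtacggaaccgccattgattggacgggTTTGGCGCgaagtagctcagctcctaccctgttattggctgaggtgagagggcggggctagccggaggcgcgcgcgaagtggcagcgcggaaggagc
Cdc6: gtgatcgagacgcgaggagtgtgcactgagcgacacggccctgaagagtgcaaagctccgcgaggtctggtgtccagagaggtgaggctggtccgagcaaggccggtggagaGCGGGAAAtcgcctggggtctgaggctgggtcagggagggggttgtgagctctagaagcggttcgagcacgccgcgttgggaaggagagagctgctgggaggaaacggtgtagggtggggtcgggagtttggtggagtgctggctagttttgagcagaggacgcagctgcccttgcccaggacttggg
Cdt1: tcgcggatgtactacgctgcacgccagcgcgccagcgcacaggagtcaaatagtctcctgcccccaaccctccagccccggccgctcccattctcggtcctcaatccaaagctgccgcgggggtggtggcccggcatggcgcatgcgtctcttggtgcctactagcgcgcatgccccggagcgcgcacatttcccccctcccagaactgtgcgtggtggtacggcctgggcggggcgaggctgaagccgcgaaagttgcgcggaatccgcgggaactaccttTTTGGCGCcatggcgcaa
The Mcm5 window is chr8:75109259-75109558 on the plus strand, with overlapping matches starting 153 and 149 bases before the start. The Mcm6 window is chr1:128359656-128359955 on the minus strand, with matches 110, 106 and 47 bases before it, the first pair overlapping. Cdc6, at chr11:98907901-98908200 on the plus strand, has a match 138 bases before the start, and Cdt1, at chr8:122567765-122568064 on the plus strand, has one at base 33 after it. A match was found in 10 of 18 licensing genes with a window (55.6%), in 8 of 25 fork genes (32%) and in 9 of 25 G1 regulators (36%), against 3.81% of all measured genes and 2.26% of all 32851 windows. Among DNA repair genes of S phase it was 7 of 15 (46.7%), among nucleotide synthesis genes 2 of 23 (8.7%) and among mitosis genes 3 of 36 (8.33%). Among the genes that rose it was 12 of 89 (13.5%). These letters are absent from the windows of Rrm2 and Pcna. A match is a description of sequence and not of binding.

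Mitosis genes had not passed at 24 h. In limma 0 of 45 measured members passed, and 8 were higher at an unadjusted p under 0.05 (7.11% of all genes were). Without the 2 old arrays 5 passed (3.92% of all genes did). The median of the 45 was 0.42. Cdca8, a subunit of the chromosomal passenger complex, had 8.64, 8.07 and 7.59 in PH livers against 6.15 and 6.60 in shams. Every PH array was above the shams, and the difference of 1.72 ± 0.47 did not pass (adjusted p = 0.0835). Cdk1, the mitotic kinase, was at 1.30 ± 0.50, Top2a at 1.23 ± 0.57 and the proliferation antigen gene Mki67 at 1.13 ± 0.66. Pttg1, the securin, was at -0.06 ± 0.18.

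The later time showed how the groups moved. In young livers the signed PH minus sham difference was higher at 48 h than at 24 h for 116 genes and lower for 11 (0.698% of genes called). This was tested as a difference of responses in the same fit. A lower value can be a deeper fall at 48 h, as for Tprkb (-0.72 at 24 h and -1.64 at 48 h). Of the 45 mitosis genes 27 were larger at 48 h, with a median difference of 2.38. Ect2, a regulator of cytokinesis, averaged 6.33 ± 0.39 (SD, n = 3) in PH livers and 4.77 ± 0.10 (n = 2) in shams at 24 h. At 48 h it averaged 9.62 ± 0.36 (n = 3) in PH livers and 5.04 ± 0.13 (n = 2) in shams. Its response was 3.02 ± 0.68 larger at 48 h (limma adjusted p = 0.0285). Mcm6 (0.67 ± 0.82) and Rrm2 (0.75 ± 0.84) did not pass in that test.

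**Figure D2:**
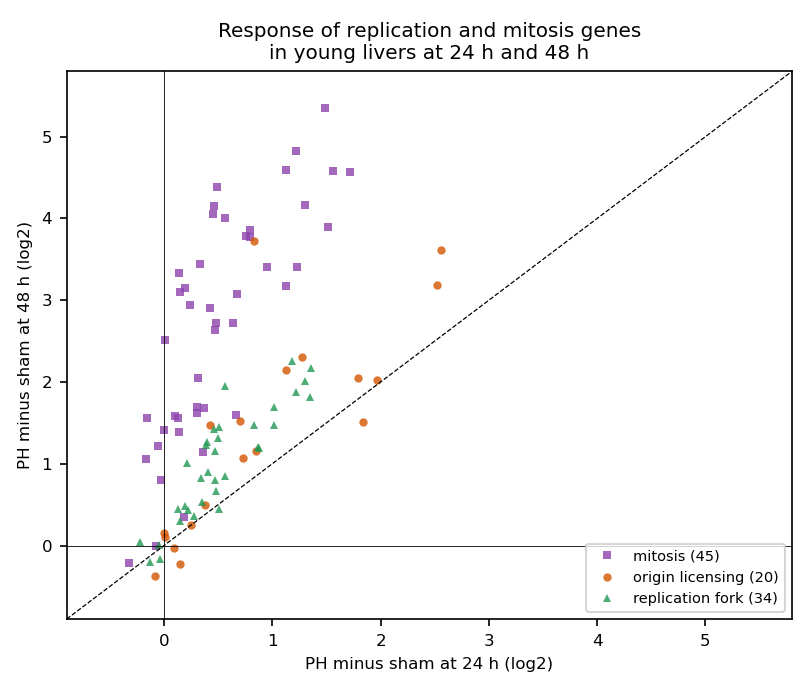
PH minus sham (log2) in young livers at 24 h (horizontal) and 48 h (vertical) for genes of mitosis, origin licensing and the replication fork. Each point is a gene and the dashed line marks equal responses. Most mitosis genes lie far above the line, with a median difference of 2.38.

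The 48 h young arrays and the old 24 h arrays are separate from the 5 arrays compared. At 48 h, 104 of the 107 genes that rose were higher in PH than in sham (41.8% of all genes were), with a median of 0.89, and 22 of the 22 that fell were lower (58.2% of all genes were), with a median of -0.63. In old livers at 24 h, 100 of the 107 were higher (48% of all genes), with a median of 0.51, and 21 of the 22 were lower (52%), with a median of -0.44. Replication genes differed in size there, each below its young value. Rrm2 was at 1.81, Mcm5 at 0.74, Mcm6 at 0.64, Topbp1 at 0.61 and Pcna at 0.56. Mcm4 was at 0.37, Ccne2 at 0.23, Cdt1 at 0.08 and Cdc6 at -0.07. The test of the difference between young and old responses called 0 genes (0% of those tested, 1677 at an unadjusted p under 0.05 in limma). Without the 2 old arrays that stand apart it called 6 (0.033%), all with a positive difference of young minus old responses, 2 of which are named after their values were seen. For the retinol dehydrogenase gene Rdh16 the difference was 2.00 ± 0.35, with 9.72, 10.11 and 10.17 in young PH livers against 9.88 and 9.64 in young shams, and 8.25 and 8.31 in the old PH livers kept against 10.25 and 9.82 in old shams. PH lay below sham in old livers and overlapped it in young ones. For the fumarase gene Fh1 it was 0.90 ± 0.16, with PH above sham in young livers. Old mice came from the National Institute on Aging, so age and supplier cannot be told apart.

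The largest changes outside replication fell in genes of several kinds. Thrombomodulin (Thbd), an endothelial receptor that restrains clotting, had 10.44, 9.97 and 9.88 in PH livers against 6.67 and 7.04 in shams. The groups were far apart, and the rise was 3.25 ± 0.57 (9.49-fold, adjusted p = 0.00821). Fabp4, a fatty acid binding protein of adipocytes and capillary endothelium, had 12.47, 10.28 and 10.20 in PH livers against 7.90 and 7.74 in shams, a rise of 3.16 ± 0.73, while its other 3 probe sets gave -0.08 to 3.24. Fabp4 was highest in PH replicate 1, the array with the most adipocyte marker RNA. Without that array the 2 remaining PH values still lay above both shams, and Fabp4 did not pass. The gap junction gene Gja1 rose by 2.01 ± 0.34 (4.02-fold). Egln3, an oxygen-dependent prolyl hydroxylase, had 11.48, 11.79 and 10.70 in PH livers against 9.33 and 9.38 in shams. It rose by 1.97 ± 0.26 (adjusted p = 0.00062). Tagln, an actin-binding protein of smooth muscle, rose by 1.72 ± 0.40, with 11.04 in PH replicate 1 and 9.17 and 9.90 in the others. The tropomyosin gene Tpm4 (1.22 ± 0.25) was the 1 of 29 cytoskeletal genes that rose (7 without the 2 old arrays, median 0.72). Among all genes 0.588% rose, and 3% did without the 2 old arrays. Tpm4 had 11.01, 10.56 and 10.33 in PH replicates 1 to 3. Replicate 1 was the highest PH array for many other members too, though not for Krt18.

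Growth and protein synthesis genes moved by less. Rrs1, a factor of ribosome assembly, had 10.54, 10.66 and 10.67 in PH livers against 9.37 and 9.70 in shams. PH values were tight and above both shams, and Rrs1 rose by 1.08 ± 0.14 (adjusted p = 0.00062). Nolc1 (0.77 ± 0.18) and Nop56 (0.64 ± 0.15), nucleolar proteins, rose too, 3 of 41 measured ribosome biogenesis genes in all (12 without the 2 old arrays, median 0.26). For this and the next lists, 0.588% of all genes rose, and 3% did without the 2 old arrays. Rrs1 was at -0.11 against untreated livers after PH and at -1.20 after sham. Eef1e1 and Farsb, of the tRNA synthetase machinery, rose by 0.81 ± 0.17 and 0.54 ± 0.12, 2 of 27 measured genes of translation (5 without the 2 old arrays). The mitochondrial co-chaperonin gene Hspe1 (0.60 ± 0.12) was the 1 of 28 heat shock genes that rose (10 without the 2 old arrays, median 0.46). Cebpb, a transcription factor of the acute phase and of regeneration, had 12.69, 12.73 and 12.68 in PH livers against 11.87 and 11.70 in shams, and rose by 0.91 ± 0.14 (adjusted p = 0.00216). In untreated livers Cebpb averaged 12.47. Its relative Cebpa, which restrains hepatocyte proliferation, was at -0.63 ± 0.19 without passing (adjusted p = 0.113).

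Untreated livers gave a further point of comparison for these genes. PH livers differed from untreated livers in 3163 genes (17.4%) and shams in 3588 (19.7%). These comparisons share arrays with PH against sham, so their values are set side by side only. The genes that rose had a median of 0.80 against sham, 0.30 against untreated livers for PH, and -0.44 for sham against untreated. Of these 107 genes, 44 passed as higher in PH than in untreated livers and 3 as lower. For sham against untreated livers 54 passed as lower and 0 as higher. For the genes that fell the medians were -0.69, -0.58 and 0.12. Lpin1, a phosphatidate phosphatase of triglyceride synthesis, had 9.89, 10.23 and 9.89 in PH livers against 8.44 and 8.35 in shams and averaged 12.52 in untreated livers. It rose by 1.60 ± 0.36 against sham, and against untreated livers it was at -2.52 after PH and -4.12 after sham. Tob2, an antiproliferative protein, rose by 1.28 ± 0.28 against sham and was at -0.32 after PH and -1.60 after sham against untreated livers. Ehhadh, a peroxisomal enzyme of fatty acid oxidation, rose by 1.26 ± 0.27 and was at 0.17 after PH and -1.10 after sham.

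**Figure D3:**
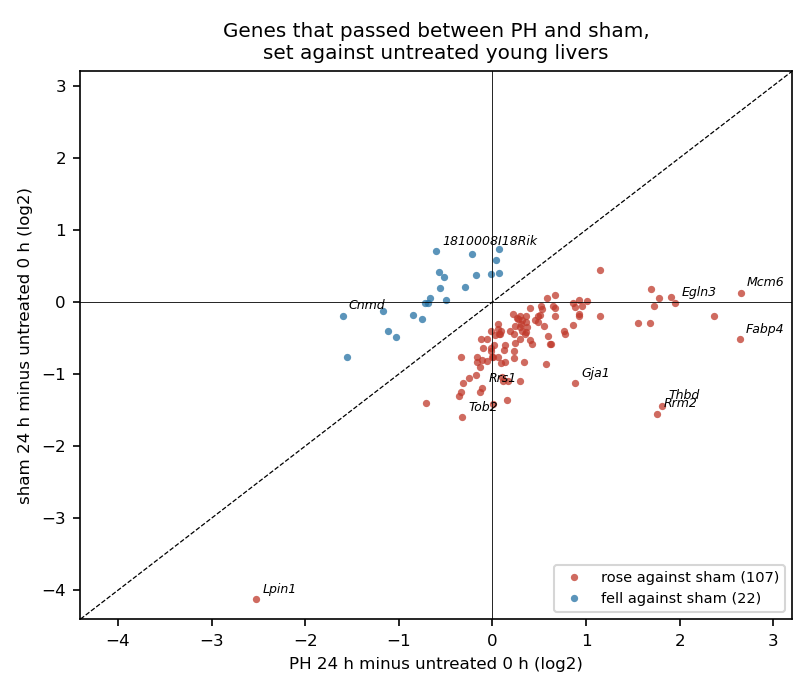
The 129 genes that rose (107) or fell (22) between PH and sham, plotted by PH minus untreated (horizontal) and sham minus untreated (vertical), both log2 and sharing the untreated arrays. Genes on the dashed line would be equal in PH and sham. Mcm6 and Fabp4 lie far to the right near the zero line of sham, and Lpin1 lies low on both axes.

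Genes that fell were fewer and mostly changed by less. Cnmd, encoding chondromodulin, had 6.09, 6.00 and 6.00 in PH livers against 7.73 and 7.16 in shams, and fell by 1.41 on the log2 scale (SE 0.30, adjusted p = 0.0258). Iigp1, an interferon-induced GTPase, had 11.23, 11.29 and 12.14 in PH livers against 12.72 and 12.48 in shams, PH replicate 3 being nearest to the shams, and fell by 1.05 (SE 0.22). It was the 1 of 33 interferon genes that fell, where 0.121% of all genes did. Hgfac, the protease that activates hepatocyte growth factor, had 11.53, 11.56 and 11.57 in PH livers against 12.28 and 12.16 in shams. It fell by 0.67 (SE 0.13, adjusted p = 0.0142), and the groups were tight and apart. Hgf itself, named after its values were seen, was at 0.52 ± 0.17 and its receptor Met at -0.27 ± 0.13, neither passing. The other 2 probe sets of Hgf gave -0.10 and 0.12. Pdcd4, an inhibitor of translation, fell by 0.73, the splicing factor gene Srsf5 by 0.75 and Pcyt2, of phosphatidylethanolamine synthesis, by 0.66. Sulf1, a heparan sulfate sulfatase, fell by 0.67, although its other 2 probe sets gave 0.10 and 0.13.

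Cholesterol synthesis genes were low in PH livers as a group. All 17 measured members lay below both shams in every PH array, where 19.1% of all genes did, and their median was -1.54. 1 member passed, Tm7sf2, a sterol reductase, with 11.07, 10.99 and 11.08 in PH livers against 11.83 and 11.68 in shams, a fall of 0.71 (SE 0.13, adjusted p = 0.0106). Hmgcs1, which makes HMG-CoA for the mevalonate pathway, had 12.07, 12.05 and 12.48 in PH livers against 13.80 and 13.97 in shams. The gap was wide, and its difference of -1.68 ± 0.55 did not pass (adjusted p = 0.154, and 0.0104 without the 2 old arrays). Sqle, the squalene epoxidase, was at -1.60 ± 0.60 (adjusted p = 0.23, and 0.0773). Without the 2 old arrays 14 of the 17 passed, and none did without PH replicate 1 or either sham. Against untreated livers the median was -0.93 after PH and 0.63 after sham. Insig1, a sterol sensor that holds SREBP back, was at -1.54 ± 0.44, and the SREBP genes Srebf1 and Srebf2 were at -0.84 and -0.19, none passing.

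**Figure D4:**
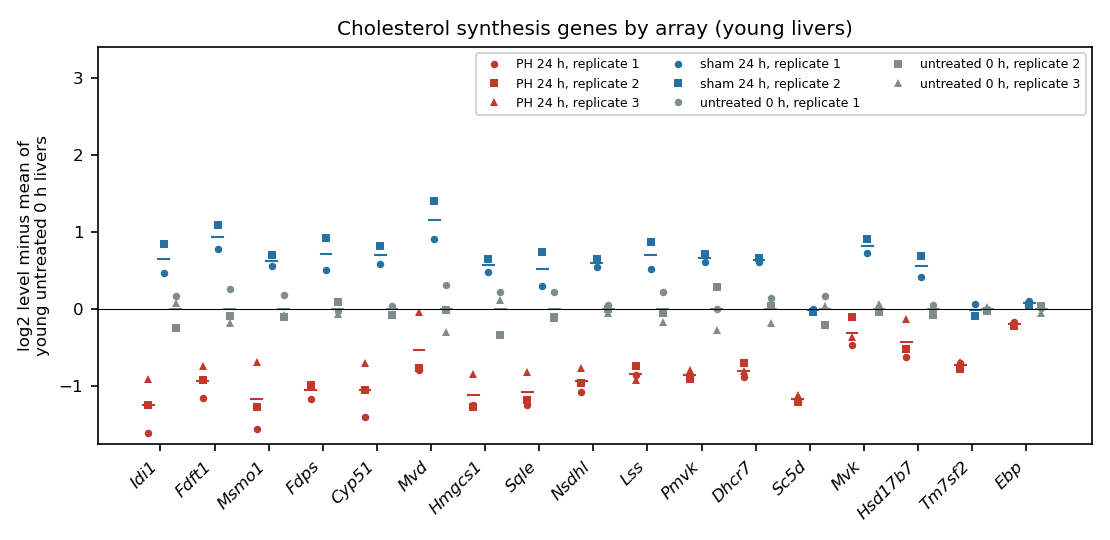
Log2 level of the 17 measured cholesterol synthesis genes by array, minus the mean of the young untreated livers, ordered by PH minus sham. Each point is an array and short lines are group means. All PH arrays lie below both shams in each gene, from -1.91 for Idi1 to -0.27 for Ebp.

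The Hmgcs1 promoter, chosen after its values were seen, is printed because it was the only one of 14 cholesterol genes with a window that held a match to the sterol response element TCACNCCAC (7.14%, against 1.46% of measured genes). Capitals mark that match, 137 bases before the start, and 4 matches to CCAAT on either strand, the letters of the NF-Y box. The window is chr13:119690101-119690400 on the plus strand of GRCm38.p6.
Hmgcs1: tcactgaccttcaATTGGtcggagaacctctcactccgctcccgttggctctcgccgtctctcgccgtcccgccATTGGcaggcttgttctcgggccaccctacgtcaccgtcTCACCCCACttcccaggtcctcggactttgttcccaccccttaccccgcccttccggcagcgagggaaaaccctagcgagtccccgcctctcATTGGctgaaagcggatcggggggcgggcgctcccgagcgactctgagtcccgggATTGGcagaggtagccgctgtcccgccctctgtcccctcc
CCAAT was found in at least 1 window of 14 of 14 cholesterol genes (100%) and 28 of 36 mitosis genes (77.8%), against 42% of measured genes.

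Acute phase genes, and several single genes known from the injured liver, did not pass between PH and sham. In limma 0 of 27 acute phase genes passed (2 were lower at an unadjusted p under 0.05, as 5.6% of all genes were, and both passed without the 2 old arrays, Hamp at -0.62 with an adjusted p of 0.0202 and Hamp2 at -1.06 with 0.0234, genes of the iron hormone hepcidin), with a median of -0.06 between PH and sham and 0.43 for PH against untreated livers and for sham against untreated livers alike. The other probe set of Hamp2 gave 0.00. Saa2, serum amyloid A, had 14.70, 14.93 and 14.98 in PH livers against 14.98 and 15.01 in shams and averaged 10.36 in untreated livers. The highest signal was 14.976 in PH replicate 3 and 15.0132 in sham replicate 2. Saa2 was at that top, so its closeness between PH and sham does not establish equal RNA. Lcn2, named after its values were seen like Saa2, averaged 9.30 in untreated livers and had 14.31, 14.40 and 14.42 in PH livers against 14.38 and 14.22 in shams. The immediate early gene Egr1 had 10.06, 12.35 and 12.27 in PH livers against 9.76 and 7.74 in shams, a difference of 2.81 ± 0.72 that did not pass (adjusted p = 0.0636). Its values spread widely in both groups. Igfbp1, a hepatic growth factor binding protein, had 11.74, 12.43 and 13.18 in PH livers against 11.54 and 9.27 in shams (2.04 ± 0.71), and did not pass. Against untreated livers Igfbp1 was at -0.08 after PH and -2.13 after sham. For both genes every PH array lay above both shams. Afp, the fetal albumin relative, was at 0.44 ± 0.23 and did not pass.

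**Figure D5:**
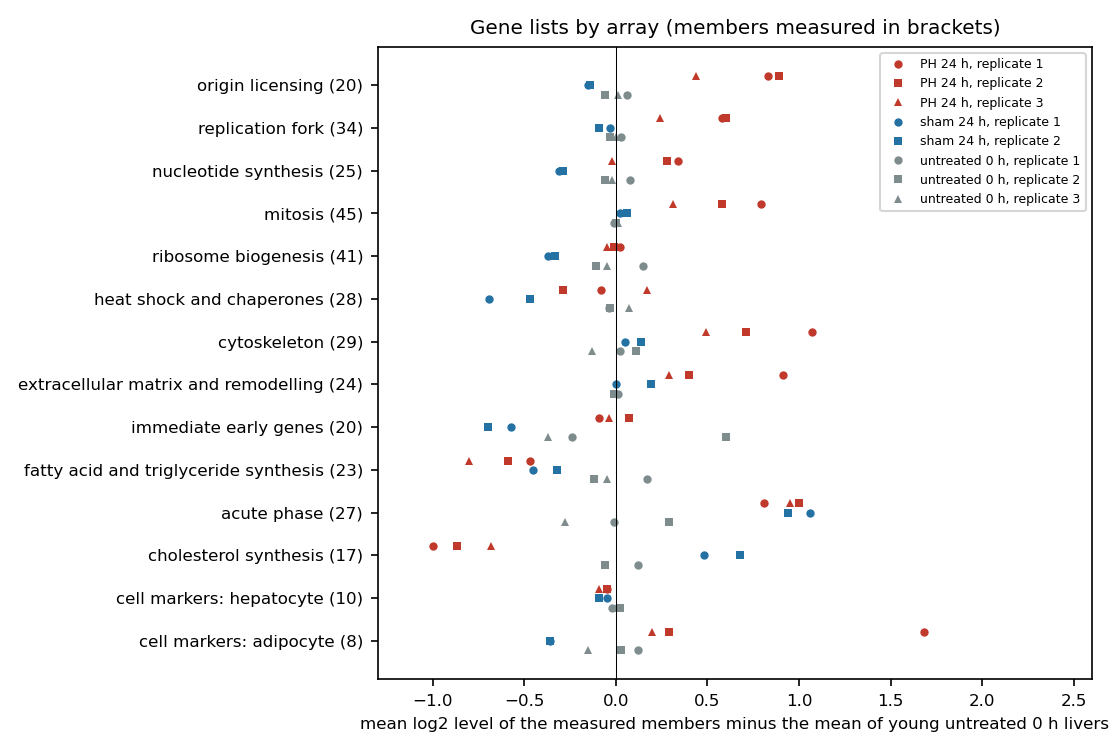
Mean log2 level of the measured members of 14 gene lists by array, minus the mean of the young untreated livers. PH arrays lie above both shams for the replication lists and below them for cholesterol synthesis, acute phase genes overlap, and PH replicate 1 stands out in adipocyte markers.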

How the data were processed

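The deposited values are log2 signals made by the authors with RMA, per the submitters' processing notes. Its version, and which arrays were normalized as 1 set, is not given in the sources here. The table holds 45101 probe sets, 64 of them controls, and the platform table gives 34958 a single gene symbol and 932 several, and does not list 9211. Each of 18194 genes was represented by its probe set of highest average signal (9012 genes had over 1), and levels of different genes were not compared.

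Group means were fitted to 35 arrays with limma 3.58.1 in R 4.3.3 (eBayes, 21 residual and 3.29 prior degrees of freedom), and the fit was tested on simulated data. P-values are two-sided and adjusted by Benjamini-Hochberg over all genes. Gene lists are described by counts and medians, without a list test. Members and lists were chosen with earlier results of these data known. Named genes are the 20 largest rises and 20 largest falls that passed, up to 4 members per list (the 4 largest changes that passed, or else the 2 highest in level and the 2 with the smallest p), a panel of regeneration genes, and the 5 largest each way in each difference of responses. Replicate numbers were not taken to pair PH with sham, as only 2 numbers are shared. Promoter sequences are from RefSeq. The alternatives were another choice of probe set, leaving out dim genes, other scalings, another variance prior, weights per array, fits on fewer arrays, a replicate block, other controls, and omission of single arrays. Figures used matplotlib 3.10.9 in Python 3.11.15.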

Additional observations from a re-analysis of the deposited data

Results flagged for a closer look

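In young livers the PH response (PH minus sham) at 48 h differed from that at 24 h for 13 named genes by a test of the difference itself in limma, with groups of at most 3 arrays. It was larger at 48 h by 3.90 for Ccnb2, a mitotic cyclin, by 3.77 for Cdca3, by 3.69 for the mitotic kinesin gene Kif20a, by 3.66 for Cdkn3 and by 3.64 for the kinetochore gene Nuf2. The difference was 3.02 for Ect2, 2.85 for Cdca8 and 1.28 for the securin gene Pttg1. It was -0.92 for Tprkb, -1.01 for the adenylyl cyclase gene Adcy9, -1.09 for 1810046K07Rik, -1.09 for Jmy and -2.15 for Sbk1. Cdkn3 averaged 6.98 ± 0.13 (SD, n = 3) in PH livers and 6.93 ± 0.05 (n = 2) in shams at 24 h, and 10.71 ± 0.39 (n = 3) in PH livers and 6.99 ± 0.05 (n = 2) in shams at 48 h. Tprkb, a subunit of the KEOPS complex, was at -0.72 at 24 h and -1.64 at 48 h.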

How the results depend on the processing

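The count of 129 genes was 243 with every probe set tested, 1616 with array weights, 897 on the 5 arrays, 719 on the 17 young arrays, 713 without 2 old PH arrays, 1153 with young shams of all times and 3163 with untreated livers as control. Leaving out 1 array gave 1 to 117. With the replicate block it was 63. Same-numbered PH and sham arrays deviated together with r of 0.019 and 0.119, so the numbers do not establish pairs. The age difference (0 genes) became 6 without the 2 old arrays, 1 with the replicate block and 0 to 3 with 1 array left out. The time difference (127 genes) became 419 without the 2 old arrays, 74 with the replicate block and 44 to 134 with 1 array left out. Of 170 named genes 55 passed, and all 55 lost it without at least 1 of the 5 arrays.

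The median of origin licensing was 0.37 with every probe set and 0.46 against untreated livers, and that of the cytoskeleton 0.31 with every probe set. Ribosome biogenesis gave 0.32 with pooled shams, -0.02 against untreated livers and 0.24 to 0.30 with 1 array left out. Heat shock genes gave -0.01 against untreated livers. Cholesterol synthesis gave -1.34 with pooled shams, -0.93 against untreated livers and -1.71 to -1.44 with 1 array left out. With untreated livers as control the sign turned for 10 named genes that passed in at least 1 of the fits, Lpin1 (-2.52), Tob2 (-0.32), Slc8a3 (0.04), Sulf1 (0.07), Usp1 (-0.11), Rrs1 (-0.11), Nolc1 (-0.13), Farsb (-0.10), Hp (0.49) and Cd8a (0.34), and for 29 that passed in neither. The causes were not tested.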

Other observations

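Enzymes of the tricarboxylic acid cycle and carriers of nuclear transport were listed after their calls were seen. Of 16 measured genes of the cycle 3 rose (0.588% of all genes did), with a median of 0.28. Idh3a, a subunit of isocitrate dehydrogenase, had 11.43, 11.39 and 10.88 in PH livers against 9.97 and 10.08 in shams. The groups did not overlap, and it rose by 1.20 ± 0.12 (limma adjusted p = 8.77e-06), although its other 3 probe sets gave -0.02 to 0.44. Fumarase (Fh1) rose by 0.71 ± 0.14 and malate dehydrogenase (Mdh2) by 0.55 ± 0.09. Against untreated livers the median of the cycle was -0.13 after PH and -0.36 after sham. Without PH replicate 1, 1 of these genes passed.

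Of 43 measured nuclear transport genes 4 rose (0.588% of all genes did), with a median of 0.28. The export receptor gene Xpo1 had 10.50, 10.46 and 10.45 in PH livers against 9.25 and 9.67 in shams, and rose by 1.01 ± 0.16 (limma adjusted p = 0.00481). Ran, the GTPase that drives transport, rose by 0.63 ± 0.13. Without PH replicate 1, 1 of these genes passed, and 9 rose without the 2 old arrays that stand apart (3% of all genes did).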
